A study of Mus musculus with 2 samples.

Results

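The miR-200 family, miR-203 and miR-205 are the miRNAs best known from epithelial cells, and they were examined in microRNA-seq libraries of the mouse adrenal gland. The set comprises 7 miRNA genes, Mir200b, Mir200a, Mir429, Mir200c, Mir141, Mir203 and Mir205, of the 2202 in the deposited tables. They were found by their symbols in the GENCODE M21 annotation, a rule that uses no measured value, although the list was drawn up with earlier results of these data known. The glands came from male B6CASTF1/J mice, an F1 hybrid strain, at postnatal day 14. There is 1 group of 2 libraries, biological replicates 1 and 2, with no treatment, mutation or second age. Each biosample names 3 males and both share 1 donor record, so whether a library pools several animals is not known, and whole glands were used without separating cortex from medulla. No contrast between conditions exists. The questions that remain are at what level the young gland holds these epithelial miRNAs and how far the replicates differed.

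MicroRNAs are short RNAs cut from hairpin precursors. They pair with messenger RNAs mainly through the seed, bases 2 to 8 of the mature strand, and lower the output of those messengers. The miR-200 family is known for holding cells in an epithelial state: it represses Zeb1 and Zeb2, the transcription factors that switch off E-cadherin, and those factors in turn repress the miR-200 genes. MiR-205 acts on the same factors and is a marker of stratified epithelia and basal cells. MiR-203 is best known from skin, where it limits the proliferative potential of keratinocytes. Steroid-producing cells of the adrenal cortex derive from mesoderm and chromaffin cells of the medulla from the neural crest.

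All 7 genes were matched in a RefSeq table of the GRCm38.p6 build. The sequences are shown because the family falls into groups by seed that cut across its genomic clusters. Each is the arm that is usually the more abundant product, 5′ to 3′, with the seed in capitals.
miR-200b-3p: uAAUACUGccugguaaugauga
miR-429-3p: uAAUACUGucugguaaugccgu
miR-200c-3p: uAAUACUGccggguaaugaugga
miR-200a-3p: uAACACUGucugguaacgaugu
miR-141-3p: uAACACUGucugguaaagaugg
miR-203-3p: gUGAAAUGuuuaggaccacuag
miR-205-5p: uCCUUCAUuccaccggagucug
The first 3 share the seed AAUACUG and the next 2 the seed AACACUG. Counted from 1 at the 5′ end, miR-200b-3p and miR-200a-3p differ in the seed by U4C alone. Across clusters but within a seed group, miR-200b-3p and miR-200c-3p differ at 2 of 22 bases, U11G and A22G. MiR-200a-3p and miR-141-3p likewise differ at 2, C17A and U22G. MiR-429-3p and miR-200c-3p, of the same seed group but in separate clusters, differ at 5. Within the chr4 cluster, miR-200b-3p differs from miR-200a-3p at 4 bases, and from miR-429-3p, which has its seed, also at 4. No other mature miRNA in the table has the seed of miR-203-3p or miR-205-5p. None of the 7 hairpins shares a stretch of 20 bases with another annotated miRNA gene, whereas matches elsewhere in the genome were not looked for.

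The 5 family genes lie in a pair of clusters on mm10, all on the minus strand. Mir200b at chr4:156055681-156055750 comes first in the direction of transcription, followed by Mir200a at chr4:156054896-156054985 and Mir429 at chr4:156053905-156053987, within 1846 bases. All 3 are in introns of Ttll10, a gene on the same strand, and Mir429 also overlaps an exon of the non-coding transcript Gm13648. Mir200c at chr6:124718322-124718390 and Mir141 at chr6:124717914-124717985 span 477 bases in an intron of the non-coding gene Gm15884, between Phb2 and Ptpn6. Mir141 also overlaps an exon of the gene Gm29008 on the same strand. Mir203 at chr12:112130880-112130955, on the plus strand, overlaps no other gene annotated in GENCODE M21, where the nearest, Aspg, lies 3320 bases away on the same strand. Mir205 at chr1:193507463-193507530, on the minus strand, lies in an exon of the long non-coding RNA 4631405K08Rik.

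The libraries held 3024662 and 3464837 sense counts in miRNA genes, 42.2% and 40.9% of the reads in each file. Levels are given as CPM, each count scaled to a common miRNA total, so 1 count was 0.331 CPM in replicate 1 and 0.289 CPM in replicate 2. Each read stands for 1 short RNA, and the mature products of these genes are 21 to 23 bases long, so CPM was not divided by length. The arms of a hairpin were not separated in the deposited counts. Intervals are exact at 95%. They hold the counting error of reads alone. Copies of 1 molecule made by PCR are counted separately, so the intervals may be too narrow for molecules.

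Together the 7 genes took 0.0814% of miRNA counts in replicate 1 and 0.157% in replicate 2, a level of 1194 ± 538 CPM (SD, n = 2). Mir203 made up most of that. The miR-200 family summed to 116 CPM in replicate 1 and 224 CPM in replicate 2, or 170 ± 76.1 CPM over its 5 genes. In whole tissue, a difference in the number of cells of a type and a difference in RNA per cell cannot be told apart. By the rule of 2 CPM or more in both libraries, 6 of the 7 genes were detected, against 16.5% of all 2202 miRNA genes.

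Mir203 had 2107 counts in replicate 1 and 4656 in replicate 2, levels of 697 and 1344 CPM. Its mean of 1020 ± 458 CPM placed it 79th of all miRNA genes, far above the median of 124 CPM among the 364 detected genes. Replicate 2 was the higher library, and the counting intervals of 667 to 727 and 1305 to 1383 CPM did not overlap. By the exact test used below, 55.4% of all 413 tested genes differed beyond counting error. Of the 7 genes' counts, Mir203 alone held 85.5% (84.1 to 86.9) and 85.3% (84.4 to 86.3) in the first and the other library. The odds ratio of these shares was 0.983 (0.857 to 1.13), an interval that includes 1.

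Mir200c, the first gene of the chr6 cluster, had 209 and 125 counts, levels of 69.1 CPM in replicate 1 and 36.1 CPM in replicate 2. It was the family member of highest mean level, at 52.6 ± 23.4 CPM, and it was the only one of the 7 genes that was lower in replicate 2 by the test used below. Mir141, its neighbour, had 28 and 31 counts, levels of 9.26 and 8.95 CPM. Its libraries lay within each other's counting intervals of 6.15 to 13.4 and 6.08 to 12.7 CPM.

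The 3 genes of the chr4 cluster were all low in replicate 1 and several-fold higher in replicate 2. Mir200b had 45 and 295 counts, levels of 14.9 and 85.1 CPM. Mir429 had 57 and 240 counts, levels of 18.8 and 69.3 CPM. Mir200a, which carries the other family seed, had 12 and 84 counts, levels of 3.97 and 24.2 CPM. For none of the 3 did the counting intervals of the libraries overlap. Differences beyond counting error were common, as the exact test used below called 55.4% of all 413 tested genes. The share of all genes with intervals that do not overlap was not counted.

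**Figure D1:**
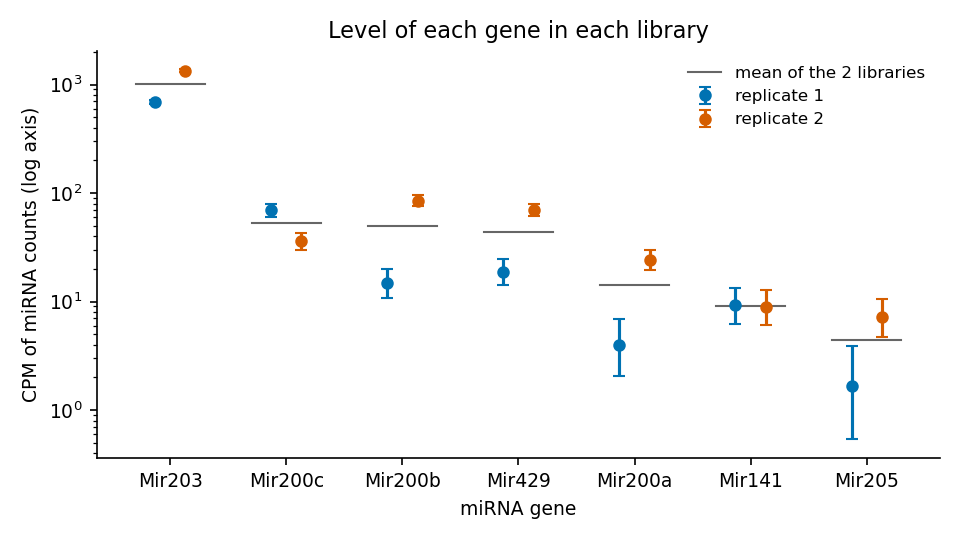
Level of each of the 7 genes in each library, in CPM on a log axis. Points are the libraries with exact 95% counting intervals and grey lines the means of both. Mir203 stands near 1020 CPM, and the chr4 genes Mir200b, Mir429 and Mir200a are higher in replicate 2, whereas Mir200c is higher in replicate 1.

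Each gene was then compared between the libraries. The test was an exact binomial one, two-sided and conditional on the gene's counts, with Benjamini-Hochberg adjustment over all 413 genes of 10 or more counts. This test compares those libraries on counting error, not conditions. All 7 genes entered it. Of them 5 were higher and 1 lower in replicate 2, and Mir141 did not pass. Among all 413 genes, 55.4% were called, 28.8% higher and 26.6% lower, so a call by itself was common at this depth. With unstranded counts 387 genes were tested. The calls over all genes were 74 higher and 139 lower, in place of 119 and 110, and the median log2 ratio was -0.14 in place of 0.03. The unstranded totals were smaller than the sense totals. For Mir200b the same 45 and 295 counts gave 21.2 and 110 CPM, in place of 14.9 and 85.1 CPM. The members' calls were 5 and 1 with those counts too.

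The sizes of the differences separate the genes more than the calls do. Mir200a was 6.11-fold higher in replicate 2 (interval 3.32 to 12.3, exact test adjusted p = 5.55e-12). Mir200b was 5.72-fold higher (4.17 to 8.02, exact test adjusted p = 1.34e-38). Mir429 was 3.68-fold higher (2.74 to 5.00, exact test adjusted p = 2.81e-22). By size of ratio these were the 7th, 9th and 18th of the 413 genes. Of all tested genes 11.4% were higher by 2-fold or more, and of the 7 members 4 were. Those 4 were Mir205 and the neighbouring genes of the chr4 cluster, which may not vary independently of each other. None of the 7 was lower by 2-fold or more, against 10.4% of all tested genes.

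Mir203 was 1.93-fold higher in replicate 2 (1.83 to 2.03, exact test adjusted p = 1.70e-146), the 50th largest ratio. In the other direction, Mir200c was 1.92-fold lower (1.53 to 2.41, exact test adjusted p = 2.07e-08). The ratio of Mir141 was 0.966 (0.561 to 1.67, exact test adjusted p = 0.943), an interval that still allows a change of more than 1.5-fold either way. The median log2 ratio was 1.88 over the 7 members, the value of Mir429 in the chr4 cluster, and 0.03 over all 413 tested genes. Sizes without regard to sign had a median of 1.88 over the members and 0.41 over all tested genes. Over the 144 tested genes with a mean of 5 to 100 CPM, the band that holds the family, that median was 0.45.

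**Figure D2:**
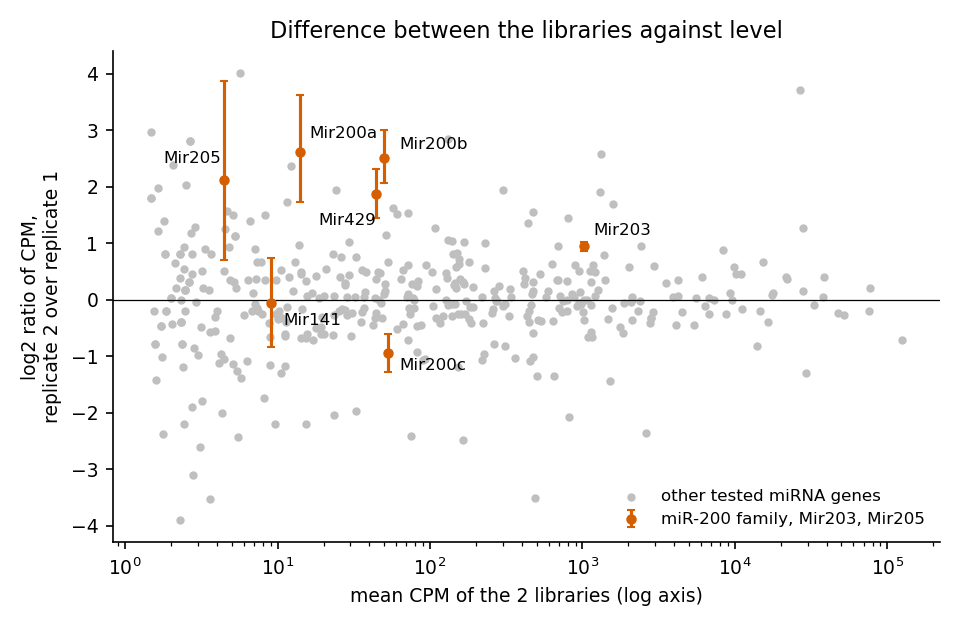
Log2 ratio of CPM in replicate 2 over replicate 1 against mean CPM (log axis) for all 413 tested miRNA genes. Grey points are other genes, and coloured points are the 7 members with exact 95% intervals. Mir200a, Mir200b, Mir205 and Mir429 lie near the upper edge at log2 ratios of 1.88 to 2.61, and Mir200c lies below 0 at -0.94.

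The summed levels of the family's clusters differed between the libraries in opposite directions. The chr4 cluster summed to 37.7 CPM in replicate 1 and 179 CPM in replicate 2, 4.74-fold higher (3.88 to 5.84). The chr6 cluster summed to 78.4 and 45.0 CPM, 1.74-fold lower (1.42 to 2.14). Mir200c made up most of that sum, and Mir141, with a ratio of 0.966 (0.561 to 1.67), was not called. As a share of the family's counts, the chr4 cluster held 114 of 351 in replicate 1, or 32.5% (27.6 to 37.7). In replicate 2 it held 619 of 775, or 79.9% (76.9 to 82.6). The odds ratio of replicate 2 over replicate 1 was 8.23 (6.15 to 11.1). Mir200c alone was 59.5% of the family in replicate 1 (54.2 to 64.7) and 16.1% in the other library (13.6 to 18.9). Mir200b was 12.8% (9.51 to 16.8) and 38.1% (34.6 to 41.6).

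Grouped by seed, the makeup of the family differed less, but a shift between clusters could change it only a little. The AACACUG gene Mir200a was 10.5% and 13.6% of the chr4 cluster, and the AAUACUG gene Mir200c was 88.2% and 80.1% of the chr6 cluster. Summed CPM of the AAUACUG genes was 1.85-fold higher in replicate 2 (1.62 to 2.13), and that of the AACACUG genes 2.51-fold higher (1.74 to 3.69). The genes of the AAUACUG seed, Mir200b, Mir429 and Mir200c, held 88.6% of the family in replicate 1 (84.8 to 91.7) and 85.2% of it in replicate 2 (82.5 to 87.6). The odds ratio was 0.738 (0.489 to 1.10), an interval that includes 1. Both seed groups drew on both clusters, and both were drawn mainly from chr6 in replicate 1 and from chr4 in replicate 2. Of the AAUACUG counts, the chr4 genes gave 32.8% in replicate 1 (27.6 to 38.3) and 81.1% in replicate 2 (77.9 to 84.0). Of the AACACUG counts, Mir200a on chr4 gave 30.0% (16.6 to 46.5) and then 73.0% (64.0 to 80.9), with Mir141 giving the rest. Reads that come from the less abundant arm of a hairpin carry another seed and are included in these sums.

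**Figure D3:**
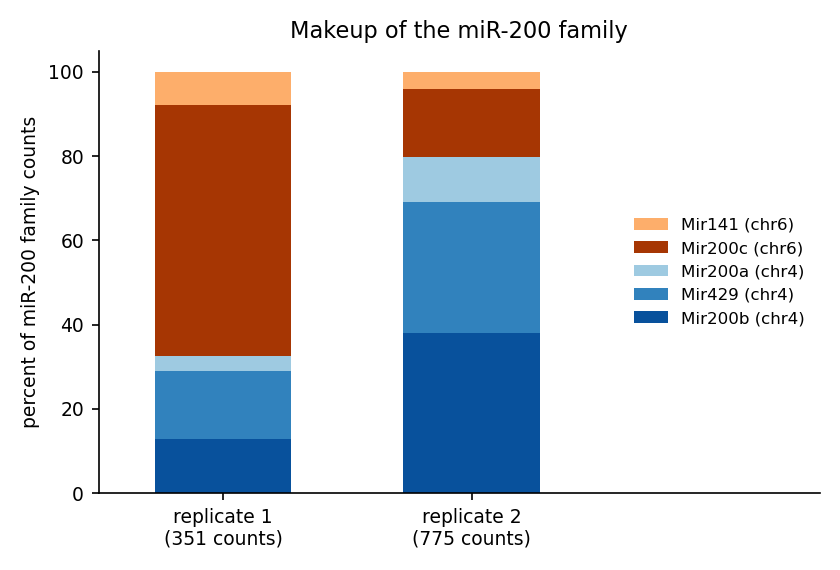
Percent of miR-200 family counts from each of its 5 genes in each library, with chr4 genes in blue and chr6 genes in orange. The chr4 genes hold 32.5% of 351 counts in replicate 1 and 79.9% of 775 counts in replicate 2.

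Within a cluster, odds ratios between the libraries ran from 0.541 to 1.40, beside the 8.23 between clusters. In the chr4 cluster, Mir200b was 39.5% of replicate 1 counts (30.4 to 49.1) and 47.7% of replicate 2 counts (43.7 to 51.7). Mir200a held 10.5% (5.56 to 17.7) and 13.6% (11.0 to 16.5), the lowest share in both libraries although it lies between the other two. Mir429 held 50% (40.5 to 59.5) and 38.8% (34.9 to 42.7), with an odds ratio of 0.634 (0.416 to 0.966). In the chr6 cluster, Mir200c held 88.2% (83.4 to 92.0) and 80.1% (73.0 to 86.1), with an odds ratio of 0.541 (0.297 to 0.981). Both of those intervals come close to 1.

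Neighbouring miRNA genes on 1 strand, less than 10000 bases apart, formed 48 clusters with 2 or more tested genes. In 2 of them, 4.17%, every tested gene was 2-fold or more higher in replicate 2. They were the Mir200b, Mir200a and Mir429 cluster and the pair of Mir192 and Mir194-2, miRNAs of kidney tubule, gut and liver. No cluster had every tested gene 2-fold or more lower. Log2 ratios of the chr4 genes spanned 0.73 from lowest to highest, against a median span of 0.62 over the 40 clusters with 2 or 3 tested genes. The chr4 cluster, with 3, is among those 40, most of which had 2. A span tends to widen with the number of genes. This count of clusters was chosen after the values of the chr4 genes were seen.

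**Figure D4:**
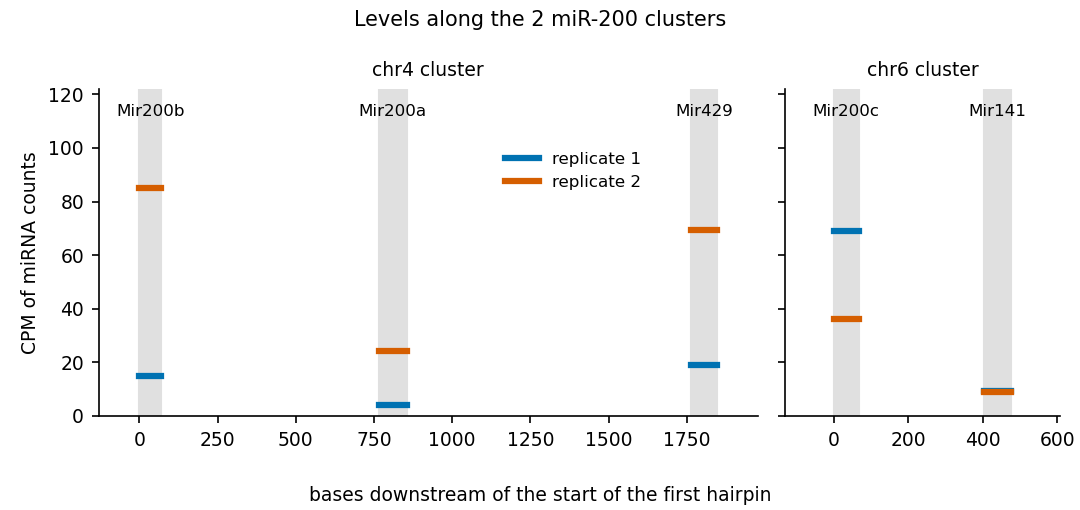
CPM in each library along the chr4 and chr6 clusters, plotted at each hairpin (grey bands) by distance in bases from the start of the first hairpin, in the direction of transcription. All 3 chr4 hairpins are higher in replicate 2, whereas Mir200c is at 69.1 and 36.1 CPM and the lines of Mir141 nearly coincide at 9.26 and 8.95 CPM.

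Mir205, which acts with the miR-200 family on Zeb1 and Zeb2, was the least abundant of the 7. It had 5 counts in replicate 1 and 25 in replicate 2, levels of 1.65 CPM (0.537 to 3.86) and 7.22 CPM (4.67 to 10.7). Replicate 1 lay below the detection rule of 2 CPM and close to the 0.992 CPM that 3 counts would give. The ratio was 4.36-fold (1.64 to 14.6, exact test adjusted p = 0.00196), the 12th largest of 413, but it rests on 30 counts in all.

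In order of mean level the genes ran Mir203, Mir200c, Mir200b, Mir429, Mir200a, Mir141 and Mir205. Mir203 stood above Mir200c, and Mir141 above Mir205, in ranges of the 2 library values that did not overlap. These ranges leave out counting error. In replicate 2 the counting intervals of Mir141 (6.08 to 12.7 CPM) and Mir205 (4.67 to 10.7 CPM) did overlap. The other neighbours in that order had overlapping ranges. Mir200c and Mir200b exchanged order between the libraries, as did Mir200b with Mir429 and Mir200a with Mir141. The counting intervals of Mir200b and Mir429 overlapped in both libraries, and those of Mir200a and Mir141 in replicate 1. Of the pairs with overlapping ranges, Mir429 and Mir200a alone kept their order in both.

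The genes closest in level to each member were found by distance in log2(CPM + 1) over the 2 libraries, which is a description of level and depth alone. For Mir203 they were Mir487b (distance 0.30, at 707 and 1089 CPM) and Mir376c (distance 0.32, at 776 and 1110 CPM). Mir153 was the closest to both Mir200b (distance 0.87) and Mir429 (distance 0.64), at 28.1 and 86.9 CPM. Their second neighbours were Mir223 and Mir128-1. Mir200a was nearest to Mir26a-1 (distance 0.23, at 3.97 and 20.5 CPM) and Mir218-1. For Mir200c they were Mir677 and Mir467c, for Mir141 Mir488 and Mir302a, and for Mir205 Mir126b and Mir19b-1.

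Other epithelium-linked miRNAs did not share a direction. Of 9 listed genes 7 were tested, and by the exact test 3 were higher and 4 lower in replicate 2. Among all 413 tested genes 28.8% were higher and 26.6% lower. Mir182, of the sensory and epithelial miR-183 cluster, was 1.74-fold higher, from 1006 to 1751 CPM. Mir34c, a miRNA of multiciliated cells, was 2.55-fold lower, from 719 to 282 CPM, and Mir31, a miRNA of keratinocytes, was 11.3-fold lower, from 895 to 79.1 CPM. Their cluster neighbours in the list did not all go the same way. Beside Mir182, Mir183 was 1.27-fold higher (73.4 and 92.9 CPM) but Mir96 was 2.23-fold lower (12.2 and 5.48 CPM). Beside Mir34c, Mir34b was 1.75-fold higher (16.9 and 29.4 CPM). Mir449b and Mir449c, also of multiciliated cells, had no counts. The list summed to 2817 CPM in replicate 1 and 2309 CPM in replicate 2, with a median log2 ratio of -0.46. The direction of that sum rests on Mir31, without which it would be higher in replicate 2.

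Markers of other tissues and cell types also differed between the libraries, and their part in the results above was not tested. In the list of kidney tubule and gut, 3 of 5 genes were higher and 1 was lower in replicate 2. The shares over all 413 tested genes were 28.8% higher and 26.6% lower. It summed to 113 and 387 CPM, with none of its genes at 0 in both libraries. Mir192 was 7.22-fold higher and Mir204 1.44-fold higher, while Mir215, whose seed family is that of Mir192, was 3.35-fold lower at 12.6 and 3.75 CPM. The hepatocyte miRNA Mir122 stood at 3786 and 49474 CPM.

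Summed levels of the blood and vessel lists went the other way. The calls in each list stand beside 28.8% higher and 26.6% lower among all 413 tested genes. The 3 erythroid genes summed to 43959 and 19202 CPM, with 2 lower and 1 not passing. The 4 white blood cell genes summed to 3466 and 1710 CPM, with 3 lower and 1 higher, and endothelial Mir126a was 1.64-fold lower. The mesenchymal list, led by Mir143, summed to 53199 and 45553 CPM over 6 genes, of which 5 were tested, 2 lower and 1 higher. The neuroendocrine list, led by Mir375, summed to 31136 and 34282 CPM with 2 of 4 genes higher. The chr4 cluster, at 37.7 and 179 CPM, was below each of these sums.

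**Figure D5:**
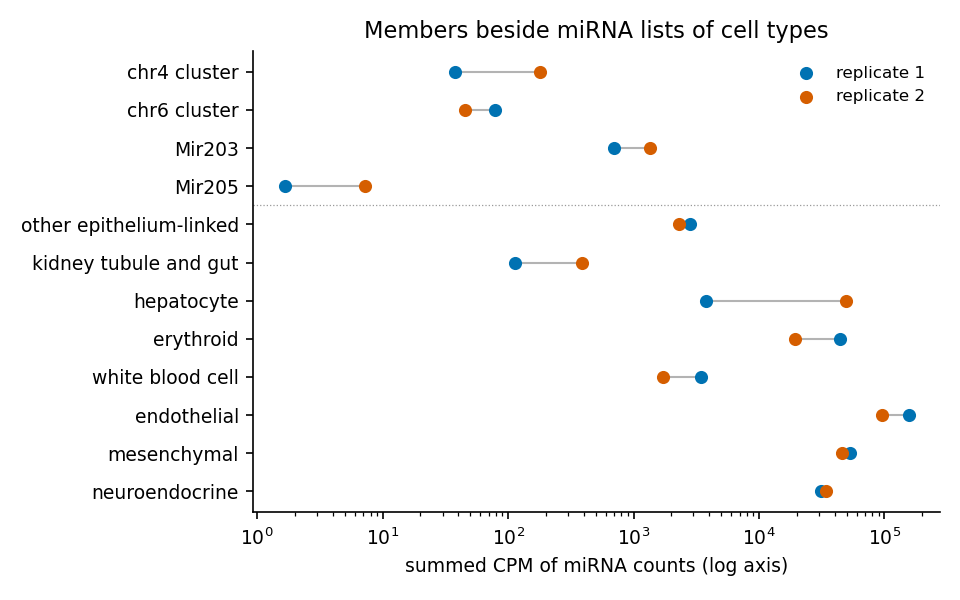
Summed CPM (log axis) in replicate 1 and replicate 2 for the chr4 and chr6 clusters, Mir203 and Mir205, above the dotted line, and for 8 lists of cell type miRNAs below it. The chr4 cluster, Mir203, Mir205, the kidney tubule and gut list and the hepatocyte list are higher in replicate 2, the chr6 cluster and the blood lists lower.

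Mir203 was also the only one of the 7 genes with reads on the opposite strand. It had 73 such reads in replicate 1 and 158 in replicate 2, equal to 24.1 and 45.6 CPM of the sense total. They were 3.35% of reads at the locus in replicate 1 (2.63 to 4.19) and 3.28% of them in replicate 2 (2.80 to 3.82). The other 6 genes had 0 opposite-strand reads in both libraries together. Over the other genes with no miRNA gene annotated on the opposite strand, such reads were 0.00377% and 0.00278% of the total. Among the 2138 genes of that kind Mir203 had the most, with 47.7% and 68.1% of all such reads, and Mir708 came next with 11 and 17.

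GENCODE M21 has no miRNA gene opposite Mir203, but the RefSeq table places the products of miR-203b there, on the minus strand of the same bases. They are shown because each is the near-complete complement of a miR-203 arm, with seeds in capitals.
miR-203b-3p: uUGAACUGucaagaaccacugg
miR-203b-5p: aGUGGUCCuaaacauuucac
The longest run of miR-203b-5p that pairs perfectly with miR-203-3p is 20 bases, and that of miR-203b-3p with miR-203-5p is also 20. Their seeds, UGAACUG and GUGGUCC, are shared with no other mature miRNA in the table. Opposite-strand reads were 1.89-fold higher in replicate 2 (1.42 to 2.53), beside 1.93-fold for the sense reads of Mir203. The counts do not give the sequences of these reads, so which arm they came from was not measured.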

How the data were processed

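MicroRNA-seq was done on 2 adrenal gland libraries. The authors deposited raw counts per miRNA gene, not normalized, 1 file per library. Per the deposited notes, the files use mm10 and GENCODE M21. The sources used here do not give the aligner or the counter. From the values, the count columns hold reads of either strand, of the strand of the gene and of the opposite strand, and the second was used. Summed over miRNA genes, the first column nevertheless held fewer counts than the second. The 4 summary rows name no gene and were left out, among them multimapping reads, 27.5% and 29.4% of each file. All 2202 identifiers matched GENCODE M21.

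Counts were divided by each library's miRNA total. With 2 libraries an exact test of levels cannot go below p = 0.5, so none was made. Intervals were exact Poisson, Clopper-Pearson and conditional ones, and calls used adjusted p under 0.05. The binomial p-values set the difference between these libraries against counting error only. The labels call the libraries biological replicates but do not say that they are separate animals, so their differences may be technical. All 7 members are named, with the 2 nearest genes to each in level and genes of 8 lists. Of the list genes, at most 3 a list follow the rule of highest mean level. The others (Mir183, Mir96, Mir34b, Mir215, Mir449b and Mir449c) were chosen after their values were seen. The members, lists and tests were chosen with earlier results of these data known. Alternatives were unstranded counts, other totals, edgeR's TMM, DESeq2's size factors, other filters and each library alone. On simulated data with known changes, the binomial script was checked first. Tests used SciPy 1.17.1 in Python 3.11.15, and factors came from DESeq2 1.42.0 and edgeR 4.0.16 in R 4.3.3.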

Additional observations from a re-analysis of the deposited data

Results flagged for a closer look

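Reads on the strand opposite Mir203 were not part of the main test between the libraries. They stood above the limit of 3 counts that a count of 0 allows, with 73 in replicate 1 and 158 in replicate 2. No control library exists for comparison. A single group of 2 libraries also gives no way to single out one that stands apart.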

How the results depend on the processing

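The 7 alternatives of the test between the libraries were unstranded counts, edgeR's TMM, DESeq2's size factors, totals without Mir122 and Mir126a, no filter, 50 or more counts, and removal of genes that share a 20-base stretch. Each member that entered kept its call and direction under all of them, with log2 ratios of 2.38 to 2.55 for Mir200b, 2.48 to 2.65 for Mir200a, 1.74 to 1.91 for Mir429, -1.07 to -0.90 for Mir200c, 0.81 to 0.98 for Mir203 and 1.99 to 2.16 for Mir205. Mir205 was not tested at 50 or more counts, which left 4 members higher. At 2-fold or more with no test, 4 members were higher and 0 lower. As CPM of all reads in the file the family summed to 70.2 CPM and all members to 493 CPM, since the total is larger by construction. Without Mir200c, the member of its seed group with the highest mean CPM but the lowest of the 3 in replicate 2, that group held 77.1% of the family (71.8% and 82.3%). Leaving out a replicate gave 116 to 224 CPM for the family, 814 to 1575 CPM for all members, 32.5% to 79.9% for the chr4 share and 85.2% to 88.6% for the seed share. No paired analysis was possible because there is 1 group. edgeR's quasi-likelihood test and DESeq2's test were not run, since no residual degree of freedom remains. Depth limits Mir205, Mir200a and Mir141 most, with 5, 12 and 28 counts in replicate 1.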
